A study of Mus musculus with 9 samples.

Results

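The genes described here are the 10 HSP70 and HSP110 family members that lie outside the deleted Hsp72 locus and are not the established chaperones of the endoplasmic reticulum. They were chosen by name from a count table of 55401 mouse genes, and all 10 passed the filter on low counts that left 14665 rows for testing, 2 of these transgenes. The members are Hspa2, Hspa4, Hspa4l, Hspa8, Hspa9, Hspa12a, Hspa12b, Hspa13, Hspa14 and Hsph1. Libraries came from mammary tumors of female C57BL/6 mice that all carried a human MUC1 transgene (MUC1.Tg) and the polyoma middle T oncogene under a mammary tumor virus promoter (MMTV-PyMT). The WT group (Hspa1a/Hspa1b+/+, 4 libraries) came from mice of 122 to 132 days and the KO group (Hspa1a/Hspa1b-/-, 5 libraries) from mice of 120 to 125 days. WT 2, at 132 days, was the only library from a mouse older than 125 days. Which tumors came from separate animals is not in the labels. The p-values and intervals below therefore reflect only how far these libraries spread, which may be technical. The tumors were broken up with collagenase and trypsin in a warm bath before RNA was extracted, and what was sequenced is therefore bulk RNA of the dissociated cells.

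HSP70 proteins bind exposed hydrophobic stretches of unfolded proteins and release them in cycles of ATP hydrolysis. J-domain proteins start the hydrolysis, and nucleotide exchange factors, among them the HSP110 proteins, end the cycle by releasing ADP. HSP72, made from Hspa1a and Hspa1b, is the form that heat and other stresses induce through heat shock factor 1, while its relative HSC70, made from Hspa8, is present in nearly every cell without stress. Tumor cells often hold much HSP72, and the design poses the question of what these mammary tumors do without it. The family members left in the KO tumors include genes that could still supply HSP70 activity.

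The targeted genes were read first. Hspa1b stood between 28.7 and 81.1 CPM (counts scaled to library size) in the WT libraries, against 0 to 0.657 CPM in the KO libraries. Hspa1a ranged over 3.99 to 9.77 CPM in WT libraries and over 0.163 to 1.64 CPM in KO libraries. Both genes were called lower in KO, with log2 fold changes of -7.89 ± 0.51 for Hspa1b and -3.16 ± 0.47 for Hspa1a (SE; edgeR adjusted p = 5.31e-05 and 0.0342), and all 9 libraries matched their labels. How the reads divide between these genes cannot be read firmly, because 62.3% of the 50-base windows of Hspa1b transcripts also occur in another gene, all of them in Hspa1a. The libraries held 4410399 to 6221181 counts on genes, so that 3 counts, the most a gene read at 0 could hide by counting error alone, equal 0.482 to 0.680 CPM. Fragments that did not map made up 12.2% of WT 1 and 10.99% of KO 3 but 15.2% to 27.1% of the other libraries, and 50.4% of KO 3 fell outside annotated features against at most 43.8% elsewhere.

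None of the 10 members was called higher or lower in the KO tumors. Hspa1l, which lies beside the deleted genes and is not a member, was called higher and is given below. These are bulk samples, in which fewer cells of a type and less RNA per cell cannot be told apart. By edgeR (quasi-likelihood, adjusted over all genes by Benjamini-Hochberg), 0 of 10 were called, where 0.0886% of all genes tested were called, 0.0546% higher and 0.0341% lower. Their adjusted p-values ran from 0.616 to 0.999. DESeq2, which called 0.464% of all genes, and limma-voom, which called 0.13%, called none of the members either. With so few genes called in all, a count of 0 among 10 is near the background. Log2 fold changes were negative for 9 members and positive for 1, with a median of -0.12, where the median of all 14665 was -7.8e-05 and 50% were negative. The number of negative members moved between 6 and 9 over the alternative analyses. At an unadjusted p under 0.05, edgeR had 1 member lower and 0 higher, beside 4.59% and 3.36% of all genes (7.95% in either direction). DESeq2 and limma-voom each had 2 members at that level, Hspa4l and Hspa8 with both tools, each lower in KO. The share of all genes at that level was not counted for these tools, so their counts have no background beside them.

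The 95% intervals limit how large a rise could have been missed, as far as the spread of these libraries measures it. The upper bounds of the 10 members, each taken by itself, ran from 0.995-fold for Hspa4l to 1.46-fold for Hspa12a. The bound was 1.00-fold for Hspa8, 1.06-fold for Hspa12b and 1.14-fold for Hspa9. It was 1.27-fold for Hsph1, 1.28-fold for Hspa4, 1.30-fold for Hspa2, 1.37-fold for Hspa13 and 1.39-fold for Hspa14. Over the alternative analyses the highest bound reached by any member was 1.70-fold, for Hspa12a, both with age as a covariate and without WT 1 and KO 3. The bound reached 1.69-fold for Hspa13 and 1.68-fold for Hsph1, against 1.09-fold for Hspa8 and 1.07-fold for Hspa4l.

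**Figure D1:**
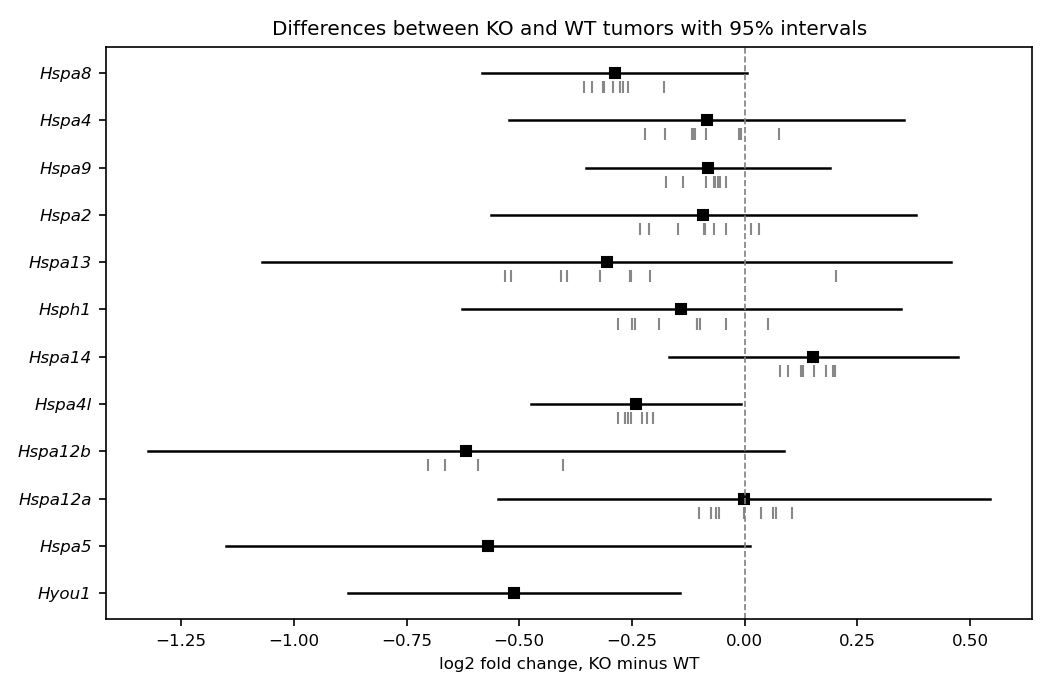
Log2 fold change (KO minus WT, horizontal axis) of the 10 members and of the endoplasmic reticulum genes Hspa5 and Hyou1, with squares for the edgeR estimate and lines for its 95% interval. Grey ticks under each member are the estimates with 1 library left out. Of the 10 members, only the interval of Hspa4l lies wholly below 0, and the highest upper bound is the 0.54 of Hspa12a.

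Hspa8 (ENSMUSG00000015656.17, chromosome 9, 40800984 to 40810087, + strand, GRCm38) encodes HSC70, the constitutive cytosolic HSP70 that also uncoats clathrin vesicles. It was the most abundant member per length. Its levels were 688, 581, 478 and 514 CPM in WT 1 to WT 4 and 426, 442, 496, 455 and 495 CPM in KO 1 to KO 5. WT 1, WT 2 and WT 4 lay above every KO library, while WT 3 lay within the KO range. WT averaged 565 ± 92.2 CPM (SD, n = 4), and KO averaged 463 ± 31.8 CPM (SD, n = 5). On the log2 scale the difference was -0.29 ± 0.13 (SE), with an interval of -0.58 to 0.0049, and it was not called (edgeR adjusted p = 0.633). By exact permutation of the libraries over the groups, two-sided and not adjusted for the other members, p was 0.0317. Without WT 1 the log2 fold change was -0.18. Transcripts of Hspa8 share 39.4% of their 50-base windows with other genes, mostly processed pseudogenes, and the table books fragments that map to several places apart from the genes. The look-alike genes in the table took 153 counts in all against 24221 for Hspa8, which is 0.632% of its own.

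Hspa2 (ENSMUSG00000059970.7, chromosome 12, 76404176 to 76406938, + strand) encodes the HSP70 known for its role in male meiosis and is also made in other tissues. Its levels were 29.8, 37.0, 20.6 and 31.6 CPM in WT 1 to WT 4 and 37.0, 32.1, 19.5, 23.1 and 27.5 CPM in KO 1 to KO 5. The groups overlapped over almost their whole range. Hspa2 had a log2 fold change of -0.09 with an SE of 0.21 (edgeR adjusted p = 0.933). It turned positive without WT 2 (0.032) or without KO 3 (0.014).

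**Figure D2:**
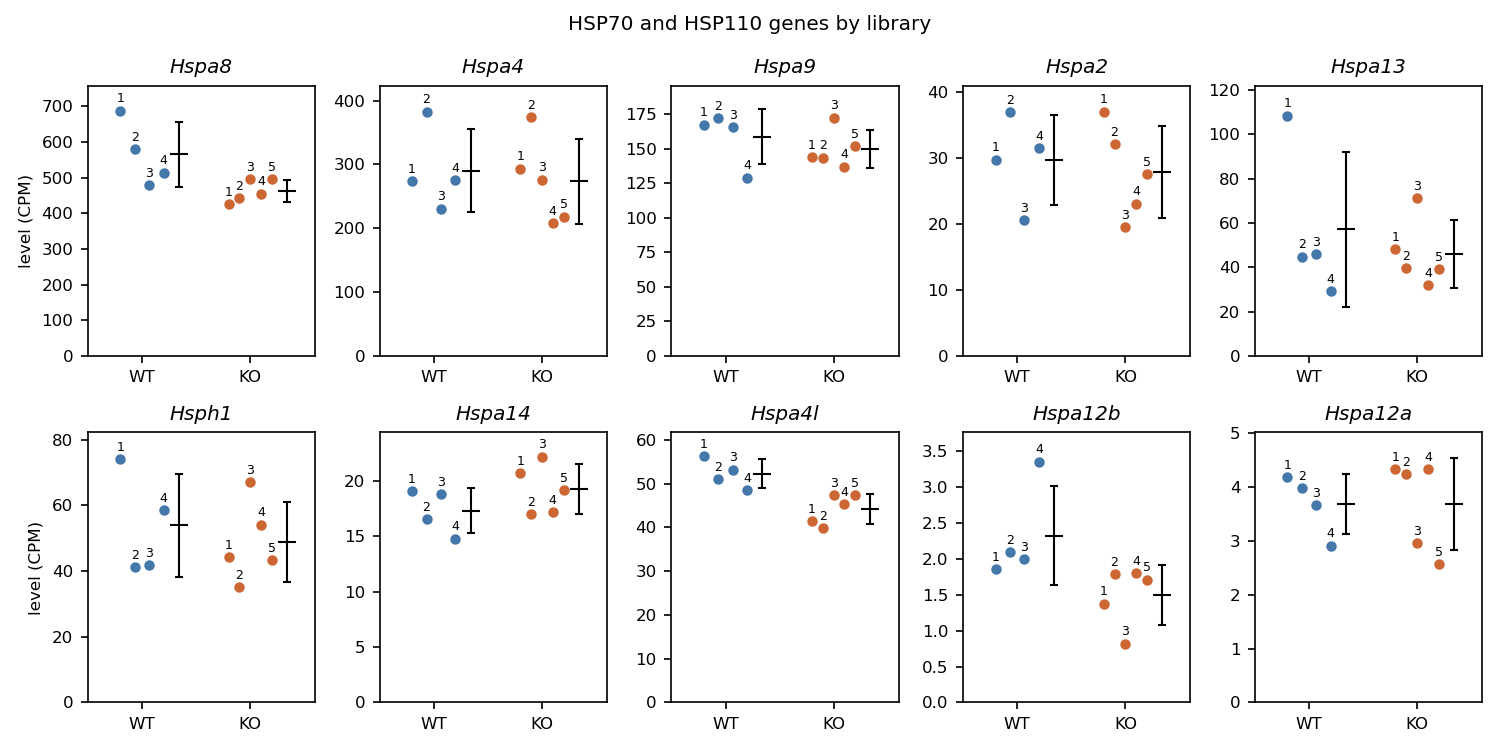
Level (CPM, vertical axes from 0, each panel on its own scale) of the 10 members in the 4 WT (blue) and 5 KO (orange) libraries, with the library number above each point and the group mean ± SD in black. Panels run from the highest to the lowest level per length. For Hspa4l and Hspa12b every KO point lies below every WT point.

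The cytosolic HSP70 transcripts were then added up per length, as CPM per kilobase of exon. Hspa8 made up 80.0% ± 4.38 of the sum of Hspa1a, Hspa1b, Hspa1l, Hspa2 and Hspa8 in WT and 86.2% ± 3.29 in KO (SD). Hspa1a and Hspa1b together made up 8.87% to 17.7% of the sum in the WT libraries and at most 0.618% in the KO libraries. Fragments that fit both genes equally are booked to neither, and those that fit Hspa8 and a look-alike gene are also left out. The share in WT can therefore err in either direction. The sum stood at 197, 181, 131 and 151 CPM per kb in WT 1 to WT 4 and at 120, 123, 127, 121 and 131 CPM per kb in KO 1 to KO 5. WT 3 lay below KO 5, so the groups overlapped at that edge. The KO mean of 125 ± 4.68 CPM per kb was 24.4% below the WT mean of 165 ± 29.8 CPM per kb (SD), given as a description with no test.

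This difference of -40.2 CPM per kb (KO minus WT) can be divided by gene. Hspa1a and Hspa1b accounted for -21.8 CPM per kb, Hspa8, whose own change was not called, for -23.8 and Hspa2 for -0.707. Fragments that fit several genes are left out, so whether the deleted genes or Hspa8 had the larger part cannot be read. Hspa1l, the neighbour of the deleted genes, accounted for 6.08, with 0.169 CPM per kb in WT tumors and 6.25 in KO tumors. Exons of Hspa1l share 71.9% of their bases with the antisense gene Gm10501, and without a known strand setting their reads cannot be told apart. Without WT 1 the part of Hspa8 was -14.3 CPM per kb and that of the deleted genes -20.6. The sum was highest in WT 1, where Hspa8 alone reached 160 CPM per kb.

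**Figure D3:**
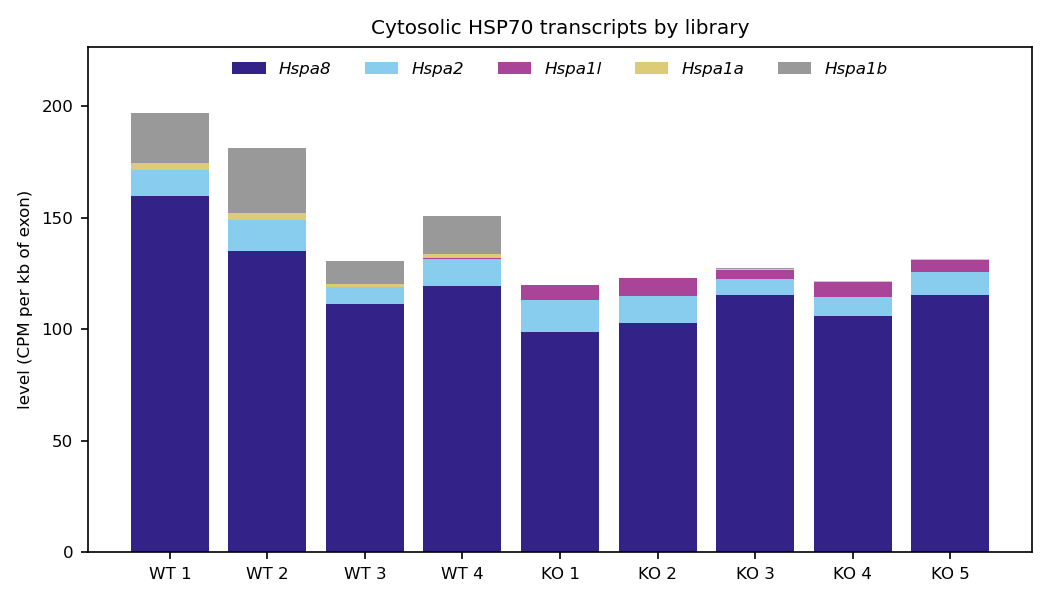
Stacked level (CPM per kb of exon, vertical axis) of the cytosolic HSP70 genes in each library. Hspa8 fills most of every bar, the Hspa1a and Hspa1b parts are seen only in the WT libraries, and the KO bars end between 120 and 131 where the WT bars end between 131 and 197.

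Hspa4, Hspa4l and Hsph1 encode the cytosolic HSP110 proteins, which act as nucleotide exchange factors for HSP70 and hold unfolded proteins themselves. Hspa4 (ENSMUSG00000020361.13, chromosome 11, 53259814 to 53300457, - strand) had the highest level of the 3 per length. It stood at 273, 383, 230 and 275 CPM in WT 1 to WT 4 and at 293, 373, 276, 208 and 218 CPM in KO 1 to KO 5. WT 2 and KO 2 were far above the rest, and the groups overlapped. Between the groups it differed in log2 by -0.08 with an SE of 0.20 (edgeR adjusted p = 0.935), and by 0.077 without WT 2.

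Hspa4l (ENSMUSG00000025757.13, chromosome 3, 40744495 to 40796103, + strand) encodes an HSP110 first described as an osmotic stress protein. Its levels were 56.3, 51.0, 53.2 and 48.6 CPM in WT 1 to WT 4 and 41.4, 39.8, 47.3, 45.3 and 47.4 CPM in KO 1 to KO 5. Every KO library lay below every WT library, with 47.4 against 48.6 CPM at the nearest pair. On the log2 scale KO was at -0.24 ± 0.11 against WT (SE), with an interval of -0.47 to -0.0075. It missed the threshold (edgeR adjusted p = 0.616, unadjusted p = 0.0442), and over the alternative analyses its adjusted p ran from 0.379 to 0.931. The exact permutation p, two-sided and not adjusted, was 0.00794, the smallest that 4 libraries against 5 can give. Hspa4l stayed lower in every alternative, with log2 fold changes of -0.28 to -0.18. Its spread was narrow, with an SD of 6.27% of the mean in WT and 7.88% in KO, and counting error alone gives 6.26% at its mean count.

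Hsph1 (ENSMUSG00000029657.15, chromosome 5, 149614287 to 149636376, - strand) encodes HSP105, the heat-inducible HSP110. Its levels were 74.2, 41.2, 41.9 and 58.6 CPM in WT 1 to WT 4 and 44.3, 35.2, 67.2, 54.2 and 43.4 CPM in KO 1 to KO 5. WT 1 and KO 3 were highest, 1 from each group, and the other libraries overlapped. Its log2 difference, -0.14 ± 0.22 (SE; edgeR adjusted p = 0.885), became 0.051 without WT 1 and 0.23 without WT 1 and WT 4. Added up per length, the 3 HSP110 genes reached 64.4 ± 11.3 CPM per kb in WT tumors, against 60.0 ± 11.2 in KO tumors (SD), a difference smaller than either spread.

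Hsph1 was also the only one of the 7 members searched whose promoter held a letter match for the binding site of heat shock factors. That stretch is shown beside those of the deleted genes. RefSeq promoters (GRCm38.p6) were found for 7 of the 10 members, all but Hspa8, Hspa9 and Hspa13. The 250 bases before each start were searched on both strands for the pairs of heat shock element units GAANNTTC and TTCNNGAA, each of which reads the same on both strands. Either pair was present in 12.8% of all 32851 promoters, so 1 member of the 7 searched is near the background. In Hsph1 a TTCNNGAA lay 54 to 47 bases before one of its RefSeq starts and 33 to 26 bases before the other. Hspa1a and Hspa1b each held a GAANNTTC 104 to 97 bases before the start, within an identical stretch. Pairs extended by a further unit were in 0.466% of all promoters and in none of these genes. A match is a run of letters and says nothing of binding. The 30 bases around each match lie at chr5:149636351-149636380 (- strand), chr17:34972242-34972271 (- strand) and chr17:34959324-34959353 (- strand), and are written 5′ to 3′ with the matched units in capitals.
Hsph1: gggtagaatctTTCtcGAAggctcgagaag
Hspa1a: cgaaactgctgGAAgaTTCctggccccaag
Hspa1b: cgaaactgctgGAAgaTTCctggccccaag

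Hspa9 (ENSMUSG00000024359.10, chromosome 18, 34937414 to 34954357, - strand) encodes mortalin, the mitochondrial HSP70 that pulls imported proteins into the matrix. Its levels were 168, 172, 166 and 129 CPM in WT 1 to WT 4 and 144, 144, 173, 137 and 152 CPM in KO 1 to KO 5. WT 4 was the lowest library and KO 3 the highest, and the groups overlapped. Hspa9 differed in log2 by -0.08 with an SE of 0.12 (edgeR adjusted p = 0.881), with an interval of -0.35 to 0.19, or 0.783-fold to 1.14-fold.

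Hspa14 (ENSMUSG00000109865.1, chromosome 2, 3488850 to 3512814, - strand) encodes an HSP70 that works on ribosomes together with the J-domain protein of Dnajc2. It was the only member with a positive fold change. Its levels were 19.1, 16.5, 18.8 and 14.8 CPM in WT 1 to WT 4 and 20.7, 16.9, 22.2, 17.2 and 19.2 CPM in KO 1 to KO 5. The groups overlapped, and the log2 difference was 0.15 ± 0.15 (SE; edgeR adjusted p = 0.807). It stayed positive in every alternative, between 0.062 and 0.21. Hspa14 shares 7.91% of its exon bases with Gm45902 on the same strand, which took 636 counts against 891 for Hspa14. Its partner Dnajc2 had a log2 fold change of 0.02 ± 0.13 (SE).

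Hspa13 (ENSMUSG00000032932.15, chromosome 16, 75745431 to 75767104, - strand) encodes STCH, an HSP70 relative of microsomes that keeps the ATPase domain but lacks the usual substrate-binding part. It varied most of the 10 members. Its levels were 108, 44.7, 45.9 and 29.3 CPM in WT 1 to WT 4 and 48.3, 39.6, 71.3, 32.0 and 39.2 CPM in KO 1 to KO 5. WT 1 stood above all others, KO 3 came next, and the groups overlapped. Its log2 fold change, -0.31 ± 0.35 (SE; edgeR adjusted p = 0.841), was 0.20 without WT 1. Across the 9 libraries its SD was 48.5% of the mean, where counting error gives 6.10%.

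Hspa12a and Hspa12b encode distant relatives of HSP70, and Hspa12b is best known from endothelial cells. Both had few counts, with 13 to 26 of Hspa12a and 5 to 15 of Hspa12b per library, where the floor was 3. Hspa12a (ENSMUSG00000025092.7, chromosome 19, 58795750 to 58943654, - strand) averaged 3.68 ± 0.558 CPM in WT libraries, against 3.68 ± 0.856 CPM in KO libraries (SD). The groups overlapped, and its log2 fold change was -0.0015 ± 0.25 (SE; edgeR adjusted p = 0.999). Its spread of 18.9% over the 9 libraries was below the 22.5% that counting alone gives.

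Hspa12b (ENSMUSG00000074793.10, chromosome 2, 131127280 to 131146321, + strand) stood at 1.86, 2.09, 1.99 and 3.36 CPM in WT 1 to WT 4 and at 1.38, 1.79, 0.821, 1.81 and 1.71 CPM in KO 1 to KO 5. Every KO library lay below every WT library, with 1.81 against 1.86 CPM at the nearest pair. KO was at -0.62 ± 0.32 against WT on the log2 scale (SE), not called (edgeR adjusted p = 0.647), or -0.40 without WT 4. The exact permutation p was 0.00794, two-sided and not adjusted, while counting error alone is 32.0% at its mean count. Hspa12b and Hspa4l were the 2 members of 10 whose KO libraries all lay below all WT libraries, which was so for 1.26% of all genes. No member had all KO libraries above all WT libraries, which was so for 1.44%.

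Endothelial markers were read beside Hspa12b. Of 13 endothelial markers 11 were tested, all 11 had negative log2 fold changes, and edgeR called none. Their summed level was 88.4 to 189 CPM over the WT libraries, against 39.7 to 105 CPM over the KO libraries. The sum was highest in WT 1 and lowest in KO 5, whereas Hspa12b was highest in WT 4 and lowest in KO 3. The part of endothelial cells in the Hspa12b values was not tested.

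Per length the members fell into an order that 3 clear steps divided. Hspa8 came first at 118 CPM per kb (mean of 9 libraries), above Hspa4 at 50.9 in every library and with no overlap of their ranges. Hspa4 and Hspa9 (35.7) overlapped in range, although Hspa4 was higher within each library. The next step led to Hspa2 (10.9), Hspa13 (7.45), Hsph1 (7.04), Hspa14 (4.53) and Hspa4l (4.05), each of which overlapped with its neighbour, although Hsph1 was above Hspa14 within each library. Hspa12b (0.507) and Hspa12a (0.401) came last and overlapped with each other. The order rests on the union of exons as length, which for Hspa14 is 4057 bases against 1795 for its longest transcript. Places within the middle group can therefore change with the length chosen. The endoplasmic reticulum HSP70 gene Hspa5, which is no member, averaged 212 ± 98.5 CPM per kb in WT tumors, against 143 ± 30.7 in KO tumors (SD).

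The members had their highest and lowest levels in different tumors. WT 1 held the highest level of 4 members (Hspa4l, Hspa8, Hspa13 and Hsph1), KO 1 of 2 and KO 3 of 2. KO 3 had the highest Hspa9 and Hspa14 but the lowest Hspa2 and Hspa12b. Hspa2 and Hspa4 were both above their own means in WT 2, KO 1 and KO 2. WT 1 and KO 3 are the libraries with the lowest unmapped share, and they are also the top pair for Hspa13 and Hsph1. The part of that share in these levels was not tested. Without both libraries the log2 fold changes of Hspa13 and Hsph1 were -0.013 and -0.091, and no member was called.

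**Figure D4:**
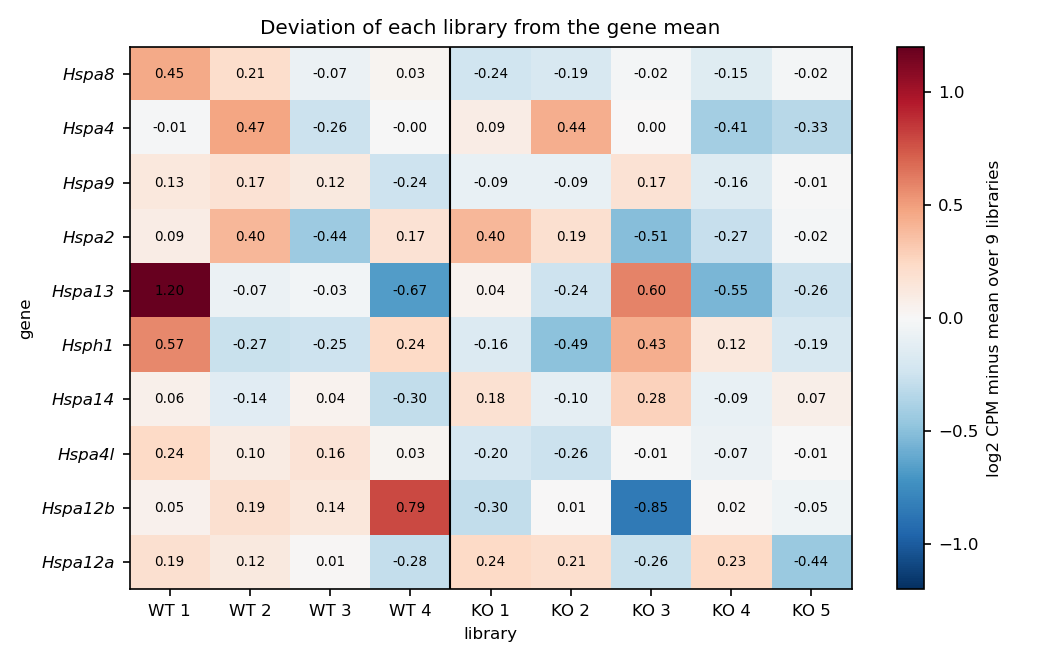
Deviation of each library (columns) from the mean log2 CPM of each member (rows), in log2 units, red for higher and blue for lower, with WT to the left of the black line. The strongest red is Hspa13 in WT 1 and the strongest blue Hspa12b in KO 3 (-0.85), and Hspa4l is above 0 in every WT library and below 0 in every KO library.

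The genes whose levels followed each member most closely over the 9 libraries were ranked by Pearson's r of log2 CPM among 10250 genes (10251 for Hspa12a and Hspa12b). The values only describe likeness, since the best of so many genes is high by choice. The closest were Spcs2 for Hspa13 (r = 0.995), a subunit of the signal peptidase, and Atp6v0c for Hspa8 (0.974), a subunit of the vacuolar proton pump. Hspa9 was closest to Eif2s1 (0.971), the alpha subunit of initiation factor eIF2, and Hspa4l to Banf1 (0.949). Hspa2 was closest to Sec16a (0.958), Hsph1 to P3h2 (0.958) and Hspa14 to Ncbp3 (0.946). Hspa4 and Hspa12a had their closest genes at 0.918 (Lifr) and 0.903 (Echs1), and the thinly counted Hspa12b at 0.971 (Dexi).

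No partner of HSP70 in the lists examined was called. None of 12 J-domain partners, 8 nucleotide exchange factors, 3 adaptors, 3 heat shock factors and 11 other heat-inducible chaperones was called by edgeR or by DESeq2. With 0.0886% of all genes called by edgeR and 0.464% by DESeq2, finding none in these lists is near the background. Medians of the log2 fold changes were -0.10 for the J-domain partners, -0.14 for the exchange factors and -0.06 for the adaptors. Dnajb1, the J-domain partner that heat induces most, had -0.25 ± 0.18 (SE), and Dnajc7 had 0.19 ± 0.11. The exchange factor Bag3 had -0.21 ± 0.15 and the adaptor Stip1, which hands clients from HSP70 to HSP90, -0.06 ± 0.13. Hsf1, the main regulator of the heat shock response, averaged 46.4 ± 8.73 CPM in WT tumors, against 54.0 ± 6.79 CPM in KO tumors (SD). Its log2 difference of 0.22 ± 0.15 was not called (SE; edgeR adjusted p = 0.716).

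The 11 heat-inducible chaperones all had negative log2 fold changes, with a median of -0.23, where 50% of all genes tested were negative. The signs were the same under each of the 4 scalings tried on these libraries (median -0.17 with library totals only). All signs were also negative among the endothelial (11), macrophage (10), mammary epithelial (8), milk protein (6) and erythroid (5) markers tested. Of 5 skeletal muscle markers 4 were positive. The small heat shock protein Hspb1 had -0.46 ± 0.15 (SE) and the cytosolic HSP90 gene Hsp90ab1 -0.32 ± 0.13, both with an edgeR adjusted p of 0.616. For these 2 of the 11 genes every KO library lay below every WT library, which was so for 1.26% of all genes. Hspb1 and Hsp90ab1 were named for having the smallest unadjusted p of the list. Hsp90aa1, the inducible HSP90, had -0.25 ± 0.18 and overlapped between the groups. The endoplasmic reticulum members Hspa5 and Hyou1 had -0.57 ± 0.26 and -0.51 ± 0.17 (SE), with edgeR adjusted p of 0.633 and 0.613. Hyou1 was lower in every KO library, at 199 to 259 CPM, against 262 to 444 CPM over the WT libraries.

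**Figure D5:**
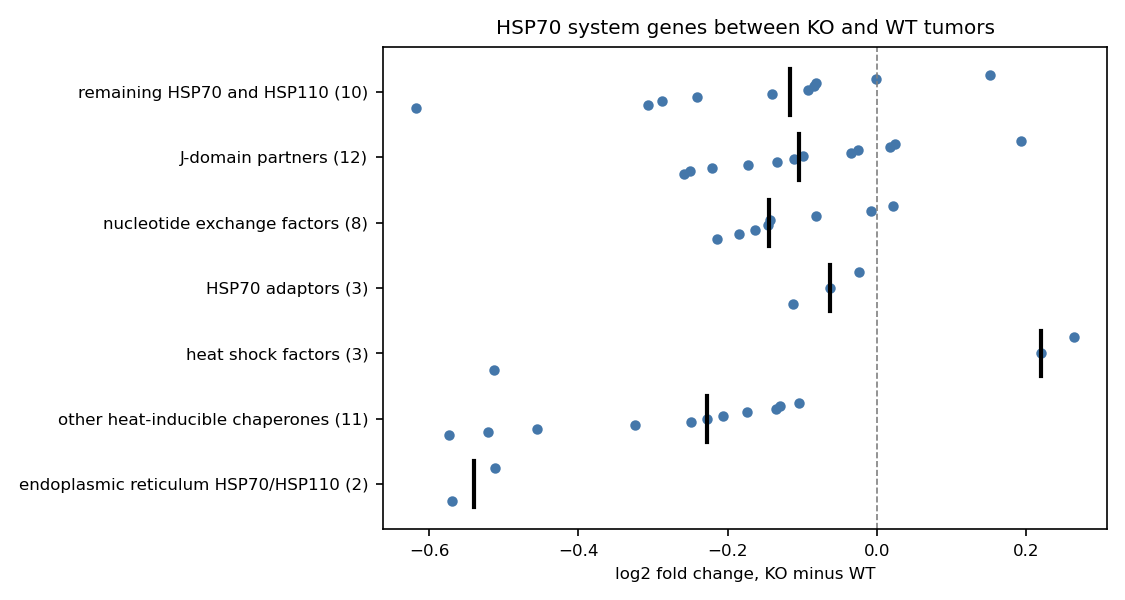
Log2 fold change (KO minus WT, horizontal axis) of each gene of the HSP70 system, by list with the number of genes tested, and a black bar at the list's median. The members spread from -0.62 to 0.15 around a median of -0.12, and every heat-inducible chaperone lies below 0.

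Markers of the tumor tissue and of the dissociation are given beside these values. The 8 mammary epithelial markers were all detected, with summed levels of 3225 to 6185 CPM in WT libraries and 2931 to 3626 CPM in KO libraries. The 11 immediate early genes known to respond to tissue dissociation summed to 727 to 1248 CPM in WT libraries and to 454 to 948 CPM in KO libraries, with 10 of 11 negative. Fibroblast markers summed to 541 to 747 CPM in WT libraries and to 203 to 423 CPM in KO libraries, with 8 of 9 negative, and macrophage markers to 345 to 600 and 214 to 436 CPM, with 10 of 10 negative. Milk protein genes summed to 3375 to 16718 CPM in WT libraries and to 2451 to 8027 CPM in KO libraries, all 6 negative, and erythroid markers to 46.7 to 173 and 20.0 to 109 CPM, all 5 negative. Skeletal muscle markers summed to 47.9 to 126.2 CPM in WT libraries and to 77.5 to 151 CPM in KO libraries, with 4 of 5 positive. The adipocyte markers tested (3 of 6) summed to 31.6 to 46.5 and 14.8 to 25.1 CPM, with 2 negative, and the neuronal and Schwann markers (2 of 6) to 48.6 to 69.8 and 51.2 to 56.9 CPM, with 1 negative. The T and NK cell markers (2 of 7, both negative) summed to 2.82 to 4.81 and 1.31 to 7.69 CPM. None of these markers was called by edgeR. DESeq2, which called 0.464% of all genes, called 2 fibroblast, 1 macrophage, 1 adipocyte and 4 milk genes, each lower in KO. Among those milk genes, Csn1s1, Csn1s2a and Csn2 were far higher in WT 1 and WT 4 than in any other library. Csn2 reached 3375 CPM in WT 4 and 1654 CPM in WT 1. Its levels in WT 2 (3.34 CPM) and WT 3 (29.2 CPM) lay within the KO range, 0.855 to 46.0 CPM. For Lalba, also called, every KO library lay below every WT library. WT 1 and WT 4 were left out together in an alternative analysis. No marker of any list was at 0 in all libraries, and the part of these cells in the members' values was not tested.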

How the data were processed

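RNA of 9 dissociated mammary tumors (4 WT, 5 KO) was depleted of ribosomal RNA and sequenced as stranded paired ends, per the labels' protocols. The values are raw fragment counts for each gene, in 1 table deposited for all 9 libraries. Trimmomatic 0.36, FastQC 0.11.5, STAR 2.5.4a and GRCm38 are named in the submitters' processing notes; the sources used here give neither the annotation release nor the strand setting. Rows naming no gene (unmapped 10.99% to 27.1%, multimapped 5.50% to 9.53%, outside features 34.0% to 50.4%, ambiguous 0.971% to 1.23% of fragments) were left out. Symbols came from GENCODE on GRCm38 for 55141 of 55401 genes.

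The test was edgeR 4.0.16 under R 4.3.3 (TMM, filterByExpr, glmQLFTest, genotype only, two-sided), with Benjamini-Hochberg adjustment over 14665 rows and a threshold of 0.05. SE is the size of the fold change over the square root of F, and 95% intervals use the fit's t quantile. CPM use TMM-scaled totals of tested rows, and levels per kb use the union of exons. Alternatives were DESeq2 1.42.0, limma-voom (limma 3.58.1) with sample weights, other scalings, filters and thresholds, the library number as a block, age, and libraries left out. Leaving out WT 1 and KO 3 was chosen after seeing the data. The fits were tested on simulated counts. Named genes are all members, Hspa1a, Hspa1b, Hspa1l, Hspa5, Hyou1, up to 4 genes per further list by unadjusted p, and the 2 genes most like each member in log2 CPM (prior count 2) at an average of at least 3; Dnajc2 and Hsp90aa1 were added after their values were seen. The members and lists were chosen with earlier results of these data known. Floors and counting errors cover counting only, since reads are not independent molecules.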

Additional observations from a re-analysis of the deposited data

Results flagged for a closer look

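Libraries that stood apart from the others of their group were found in 4 of 58 groups of levels checked, where chance gives about 1 in 20. Hspa9 was at 129 CPM in WT 4, below the 166 to 172 CPM of the other WT libraries. Hspa12b was at 3.36 CPM in WT 4, above the 1.86 to 2.09 CPM of the other WT libraries, from 15 counts. Hyou1 was at 444 CPM in WT 1, above 262 to 286 CPM in the others. The summed endothelial markers were at 189 CPM in WT 1, above 88.4 to 97.6 CPM in the others.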

How the results depend on the processing

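No member was called in any of the 20 alternatives or at a threshold of 0.10, and the lowest adjusted p among them was 0.379. Of 193 fold changes refitted for the members, 172 kept their sign and 21 turned. Turned values were 0.13 (Hspa2) and 0.096 (Hspa12a) with limma-voom, 0.022 and 0.050 (Hspa12a) with upper quartile scaling and library totals only, and 0.060, 0.10 and 0.13 (Hspa2, Hspa4, Hspa12a) with age as a covariate. They were 0.023 and 0.23 (Hspa13, Hsph1) without WT 1 and WT 4, and 0.016 and 0.13 (Hspa2, Hspa12a) without WT 1 and KO 3. With 1 library left out, log2 fold changes ran from -0.23 to 0.032 (Hspa2), -0.22 to 0.077 (Hspa4), -0.10 to 0.10 (Hspa12a), -0.53 to 0.20 (Hspa13) and -0.28 to 0.051 (Hsph1). Genes called over the whole table numbered 13, 68 with DESeq2, 29 with no count filter, 6 with genes under a mean count of 50 removed, and 6 to 13 with 1 library left out. The causes were not tested. The replicate block, with the library number as a term, called 10 genes and turned Hspa12a to 0.095. The labels tie the numbers to no shared animal, litter or day, and the libraries were not treated as paired, because the deviations of the libraries numbered 1 correlated at -0.024. The other same-numbered pairs correlated at 0.11 to 0.38, and 3 of the 4 WT libraries correlated best with their own number, which is a hint of pairing from the data and not from the design. The summed cytosolic difference ran from -50.8 to -29.6 CPM per kb with 1 library left out and was -48.9 with the longest transcript as length. Hspa12b gave no value in 5 of the 9 leave-one-out fits, and neither Hspa12a nor Hspa12b did under the stricter filter, since their counts were too low. Depth limits Hspa12a and Hspa12b most.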
